A study of Mus musculus with 19 samples.

Results

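Genes in common use as markers of macrophage activation states were examined in primary mouse sarcomas grown with and without T and B cells. The 9 genes, a set given by name with no cutoff on measured values, were Nos2, Mrc1, Chil3, Retnla, Cd163, Folr2, Spp1, Trem2 and Gpnmb, of 48795 gene identifiers in the deposited table, and each symbol matched 1 identifier. The tumors were p53/MCA sarcomas, 11 labelled Rag2-/- and 8 labelled Rag2+/-. Rag2-/- mice lack a recombinase that T and B cells need and are lymphocyte-deficient, whereas their Rag2+/- littermates carry 1 null allele and are immune-competent. All mice, male and female and 6 to 10 weeks old, received in the gastrocnemius muscle an adenovirus that expresses Cas9 and a guide against Trp53, and then 300 µg of the carcinogen 3-methylcholanthrene (MCA). Tumors were taken at a volume of 70 to 150 mm3. Each library is 1 whole tumor, so its RNA mixes sarcoma cells, infiltrating cells and the muscle around them, and for every gene below, fewer cells of a type and less RNA per cell cannot be told apart.

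Macrophages change their gene programs with the signals they receive. Interferon gamma and microbial products induce Nos2, which turns arginine into nitric oxide, a state long called classical or M1. Interleukin 4 and interleukin 13, acting through the factor STAT6, induce Mrc1, Chil3 and Retnla, a state called alternative or M2. Cd163 and Folr2 mark tissue-resident macrophages, and Spp1, Trem2 and Gpnmb mark the lipid-associated macrophages of damaged tissue and tumors. None of these genes is expressed by macrophages alone, and Spp1 in particular is also made by sarcoma and bone cells.

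Values are the authors' upper-quartile normalized FPKM (fragments scaled for gene length and sequencing depth) on the log2 scale after 0.1 was added, so a step of 1 is a doubling and the lowest possible value is -3.32. The spacing of low values put 18 tumors at an estimated 24.9 to 33.7 M fragments on genes, and S41, a Rag2-/- tumor, at 5.23 M. Rag2 transcripts were low in both groups, with medians of -0.16 in Rag2-/- and -1.13 in Rag2+/- tumors, and gene-level values do not show which part of the gene the fragments came from, so Rag2 itself checks no label. The T cell gene Cd3e was at the floor in 11 of 11 Rag2-/- tumors and between -0.61 and 2.90 in Rag2+/- tumors, and the antibody gene Igkc was at most -0.80 in Rag2-/- and at least 3.88 in Rag2+/- tumors. The macrophage genes Adgre1, Csf1r and Cd68 were detected in every tumor, at no less than 3.96, 4.52 and 6.00. The 4 tumors Rag2-/- S41, S46 and S51 and Rag2+/- S56, are outside the 15 tumors of the study's source tables. Among these 4, S46 and S51 stood apart in these genes and are followed by name.

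For the 2 secreted products of alternative activation, Retnla and Chil3, the upstream sequences from RefSeq (GRCm38.p6) are shown because both genes answer to interleukin 4, and the 4 tumors highest in Retnla held the 4 lowest Chil3 values. The capitals mark letters that match a motif. In the Retnla window, chr16:48842359-48842550 on the + strand, the second run of capitals is the STAT6-type motif TTCNNNNGAA, which begins 145 bases before the RefSeq start, and the first run is the PU.1-type motif GAGGAAGT on the opposite strand, 198 bases before that start. The Retnla sequence is printed for 192 of its 250 bases, up to the first base of the gene in GENCODE, and the RefSeq start lies 58 bases beyond its end. In the Chil3 window, chr3:106167565-106167814 on the - strand, the capitals are the shorter STAT-type motif TTCNNNGAA, 172 bases before the RefSeq start.
Retnla: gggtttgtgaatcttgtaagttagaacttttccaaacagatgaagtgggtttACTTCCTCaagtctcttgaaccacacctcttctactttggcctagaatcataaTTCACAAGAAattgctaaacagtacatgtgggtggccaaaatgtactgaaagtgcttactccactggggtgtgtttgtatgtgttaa
Chil3: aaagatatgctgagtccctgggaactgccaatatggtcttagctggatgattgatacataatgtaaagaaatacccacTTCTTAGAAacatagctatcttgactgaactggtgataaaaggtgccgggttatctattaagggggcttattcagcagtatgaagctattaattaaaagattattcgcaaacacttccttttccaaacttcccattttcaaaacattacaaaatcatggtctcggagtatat
A set of 6 motifs was searched on both strands in the 250 bases before the start of 8 of the 9 genes. Of 32851 windows of all genes, 5.85% held the STAT6-type motif, 7.02% the STAT-type motif, 2.44% the PU.1-type motif, 6.75% the AP-1-type motif TGANTCA, 1.41% the NF-kappa-B-type motif GGGNNTTTCC and 6.02% the E-box CACGTG. The PU.1-type motif also lay before Spp1, and the AP-1-type motif before Folr2 and Trem2. A match of letters is a description and not a binding site. The window of Nos2 was not used here.

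To ask whether the activation genes of tumor macrophages differ when T and B cells are missing, each gene was compared between genotypes. No difference passed the test. By limma, with Benjamini-Hochberg adjustment over the 12826 genes tested, 0 of the 9 genes were called, with adjusted p between 0.347 and 0.993, beside 0.0312% of all genes tested. At an unadjusted p under 0.05, limma also found 0 of the 9, beside 16.3% of all genes tested. By the two-sided exact permutation test, 0 of the 9 had an unadjusted p under 0.05, beside 14.9% of all genes tested, and the lowest exact p was 0.119, for Mrc1. The 2 groups overlapped for 9 of the 9 genes, and 0.0156% of genes tested had groups that did not overlap. Of the 9, 5 had a higher and 4 a lower mean in Rag2-/- tumors, and the median difference over the 9 was 0.11, beside 0.06 over all genes tested.

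**Figure D1:**
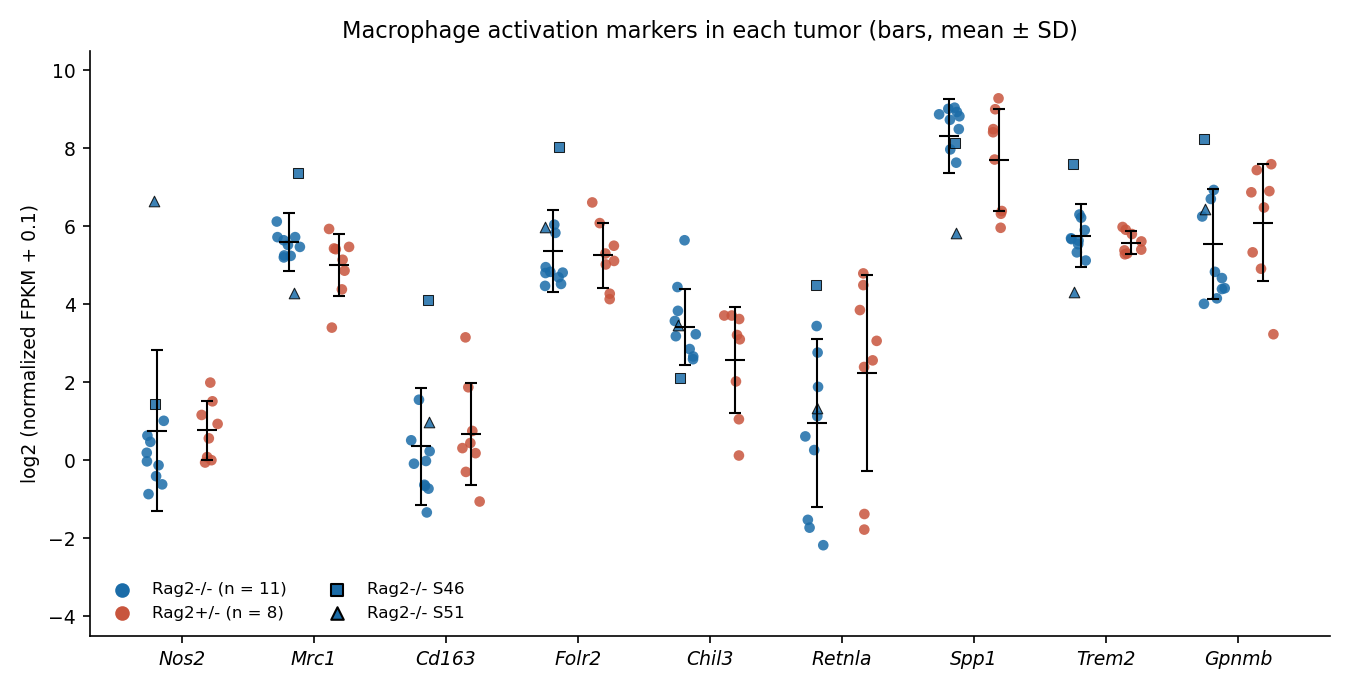
Level of each of the 9 genes in every tumor as log2 (normalized FPKM + 0.1), in blue for 11 Rag2-/- and in red for 8 Rag2+/- tumors, with the mean and SD of each group as black bars. The genotypes overlap for every gene, S51 (triangle) alone is far above the other tumors for Nos2, and S46 (square) is the highest for Mrc1, Cd163, Folr2, Trem2 and Gpnmb.

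What the data do hold is a wide spread among tumors of 1 genotype. The SD within genotypes was above the median of all tested genes (0.509) for each of the 9 genes. It lay at the 99.2 percentile of tested genes for Retnla (SD 2.31), at the 95.6 percentile for Nos2 (1.66), at the 93.8 percentile for Gpnmb (1.45) and at the 65.0 percentile for Trem2 (0.65), the steadiest of the 9. This ranking is against genes of all levels. By mean level, Retnla and Nos2 lay at the 17.3 and 8.17 percentiles of tested genes, and Gpnmb and Trem2 at the 90.8 and 90.0 percentiles. What part low fragment counts have in the spread of Retnla and Nos2 was not tested. The Nos2 spread rests on S51, since without it the SD was 0.742, at the 76.8 percentile, whereas Retnla (2.38) and Gpnmb (1.47) were then at the 99.6 and 95.3 percentiles. Intervals for the genotype differences are correspondingly wide. A difference of 1 log2 unit, a doubling, in either direction lay inside the 95% interval for Nos2, and only for Trem2, Mrc1 and Folr2 did the interval stay within 1.29 units of 0.

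The marker of classical activation did not differ beyond the spread among tumors. Nos2, the inducible nitric oxide synthase (chr11:78920787-78960254), ranged from -0.87 through 0.19 to 6.64 in Rag2-/- and from -0.06 through 0.74 to 1.99 in Rag2+/- tumors. Its top value belonged to S51 alone, 4.65 log2 units above the next tumor, Rag2+/- S59. Without S51 the difference in Nos2 was -0.60 (exact permutation p = 0.108), whereas with S51 it was -0.01 (SE 0.73, 95% interval -1.53 to 1.51, exact permutation p = 0.994). The estimated fragments on Nos2 were 21 to 6339 in Rag2-/- and 67 to 288 in Rag2+/- tumors.

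Of the scavenger and uptake receptors, Mrc1 came nearest to a difference and did not pass the test. Mrc1, the mannose receptor CD206 (chr2:14229392-14332057), ranged from 4.29 through 5.52 to 7.36 in Rag2-/- and from 3.40 through 5.28 to 5.93 in Rag2+/- tumors. S46 was the highest and Rag2+/- S56 the lowest. The difference was 0.59 (SE 0.34, 95% interval -0.11 to 1.29, limma adjusted p = 0.347). With S51 left out the difference was 0.72 (exact permutation p = 0.0378, a level that 31.4% of all genes tested passed without S51), and with S56 left out it was 0.36. Cd163, the receptor for hemoglobin bound to haptoglobin (chr6:124304656-124330527), was the lowest of the 9 genes on average, and ranged from -1.34 through -0.02 to 4.12 in Rag2-/- and from -1.06 through 0.38 to 3.15 in Rag2+/- tumors. Only S46 and S59 were above 2. Its difference was -0.31 (SE 0.63, 95% interval -1.62 to 1.0, exact permutation p = 0.647), and it was 0.04 without S59 and -0.69 without S46.

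Folr2, the folate receptor beta of resident macrophages (chr7:101839988-101857194), ranged from 4.47 through 4.83 to 8.02 in Rag2-/- and from 4.13 through 5.21 to 6.61 in Rag2+/- tumors. S46 and S59 were again the highest of their groups. The Folr2 difference was 0.11 (SE 0.43, 95% interval -0.78 to 0.99, exact permutation p = 0.829) and changed sign without S46, to -0.16. Of the 1546 exonic bases of Folr2, 975 are shared with Gm10602, annotated on the opposite strand, and whether counting used the strand is not given in the sources used here.

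Of the secreted products of alternative activation, Retnla had the widest spread within genotypes of the 9 genes. Retnla (chr16:48842551-48844461), also called RELM alpha or FIZZ1, ranged from -2.18 through 1.13 to 4.50 in Rag2-/- and from -1.78 through 2.81 to 4.79 in Rag2+/- tumors, a 228-fold span in FPKM. Tumors S60, S46, S59 and S52 held the 4 highest values, 3 of them Rag2+/-. Rag2-/- S48, S43 and S45 and Rag2+/- S54 and S58 were all below -1, at an estimated 2 to 5 fragments, so the low end is a handful of fragments. The difference was -1.30 (SE 1.01, 95% interval -3.40 to 0.81, exact permutation p = 0.240), the largest of the 9 in size and the least precise. Chil3, the chitinase-like protein Ym1 (chr3:106147554-106167564), ranged from 2.12 through 3.23 to 5.64 in Rag2-/- and from 0.12 through 3.15 to 3.71 in Rag2+/- tumors.

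The 4 tumors with the most Retnla, S60, S46, S59 and S52, held the 4 lowest Chil3 values. Rag2+/- S59 and S60 had Chil3 at 0.12 and 1.05 and Retnla at 4.49 and 4.79, and Rag2+/- S52 and Rag2-/- S46 had Chil3 at 2.02 and 2.12 and Retnla at 3.85 and 4.50. Over all tumors the pair had r = -0.40 (permutation p = 0.0912, adjusted p = 0.186) and rho = -0.43, with r = 0.04 within Rag2-/- and -0.66 within Rag2+/- tumors, so an opposite course over all tumors did not pass the test. In S56 and S47 both genes were high, with Retnla at 3.06 and 2.76 and Chil3 at 3.71 and 5.64. The Chil3 difference was 0.85 (SE 0.50, 95% interval -0.20 to 1.90, exact permutation p = 0.135), and it fell to 0.50 without S59. Chil3 has the close relative Chil4, and Retnla has Retnlb and Retnlg, so reads of these families may be divided uncertainly. The highest Chil3, in Rag2-/- S47, came with the highest mean of 10 neutrophil genes (4.0). Over all tumors, Chil3 had r = 0.38 with the neutrophil mean (permutation p = 0.104, adjusted p = 0.197, rho = 0.35), which did not pass the test. This r was 0.65 within Rag2-/- and 0.05 within Rag2+/- tumors, and 0.15 without S47 and S53. What part neutrophils have in the Chil3 value of S47 was not tested.

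Of the lipid-associated genes, Spp1 had the highest mean level of all 9 genes. Spp1, osteopontin, a secreted ligand of CD44 and integrins (chr5:104435118-104441050), ranged from 5.83 through 8.73 to 9.04 in Rag2-/- and from 5.96 through 8.06 to 9.28 in Rag2+/- tumors. The 4 tumors S51, S56, S59 and S60, lay between 5.83 and 6.39 and the other 15 between 7.63 and 9.28, with no tumor between. The difference was 0.62 (SE 0.49, 95% interval -0.40 to 1.63, exact permutation p = 0.245), and without S56 it was 0.37. Spp1 shares 309 of 1648 exonic bases with Gm42793. Trem2, a lipid-sensing receptor that signals through TYROBP (chr17:48346401-48354147), ranged from 4.32 through 5.67 to 7.59 in Rag2-/- and from 5.28 through 5.50 to 5.98 in Rag2+/- tumors. Both extremes, S51 and S46, were Rag2-/-, and the SD was 0.81 in Rag2-/- and 0.28 in Rag2+/- tumors. Its mean differed by 0.17 (SE 0.29, 95% interval -0.43 to 0.78, exact permutation p = 0.596) and was -0.010 without S46.

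Gpnmb, a lysosomal and cell surface glycoprotein (chr6:49036546-49070929), ranged from 4.01 through 4.83 to 8.23 in Rag2-/- and from 3.23 through 6.68 to 7.59 in Rag2+/- tumors. The Gpnmb medians were 4.83 and 6.68, but both groups held low and high tumors, from S53 and S41 at the bottom to S59 and S46 at the top. The difference in means was -0.55 (SE 0.63, 95% interval -1.86 to 0.77, exact permutation p = 0.420), and it ran from -0.96 without S53 to -0.33 without S59. Mean levels, which are per length and can be compared between genes, fell in the order Spp1 (8.05), Gpnmb (5.78), Trem2 (5.68), Mrc1 (5.34), Folr2 (5.31), Chil3 (3.06), Retnla (1.5), Nos2 (0.76) and Cd163 (0.49). Of the 8 neighboring pairs in this order, only Spp1 over Gpnmb and Folr2 over Chil3 differed within tumors by more than the SD of that difference, by 2.28 ± 2.08 and 2.25 ± 1.74 (SD, n = 19), the first in 15 and the second in 19 of 19 tumors.

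Because tumors can differ in how many macrophages they hold, which was not measured, each gene was also set against the mean of 13 macrophage genes in the same tumor. This mean ranged from 6.07 to 7.70 in Rag2-/- and from 5.12 to 6.94 in Rag2+/- tumors and differed by 0.26. Relative to it, 0 of the 9 genes had an unadjusted exact p under 0.05, beside 12.8% of all genes tested. The largest differences in size were Retnla at -1.56 (95% interval -3.49 to 0.37, exact permutation p = 0.149) and Gpnmb at -0.81 (95% interval -1.88 to 0.26, exact permutation p = 0.166). The median of all genes tested shifted to -0.20 on this scale, which moves every gene by the same amount. Relative to macrophage genes, S46 was the highest tumor only for Cd163 and Folr2, so its Mrc1, Trem2 and Gpnmb were no higher per macrophage gene than in some other tumor. S51 had the lowest relative Mrc1, Spp1 and Trem2 and the highest relative Nos2.

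Single tumors decided some of these values. Without S51, Nos2 relative to the macrophage genes had a difference of -0.85 (exact permutation p = 0.0215) and Mrc1 one of 0.47 (exact permutation p = 0.0408), without S53 relative Gpnmb had one of -1.20 (exact permutation p = 0.0277), and without S54 relative Retnla had one of -2.14 (exact permutation p = 0.0456). On the same relative scale, 18.1% of all genes tested had an unadjusted exact p under 0.05 without S51, 15.7% without S53 and 14.0% without S54. Without S46 and S51 together, 1 of the 9 genes, Nos2, had one on either scale, beside 36.7% of all genes tested on the deposited and 20.0% on the relative scale. In the 15 tumors of the study's source tables, limma called 0 of the 9 genes, beside 0.116% of all genes tested, and the exact test found 0 of the 9 with an unadjusted p under 0.05, beside 19.6%. The lowest exact p there was 0.0732, for Nos2 at -0.74.

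**Figure D2:**
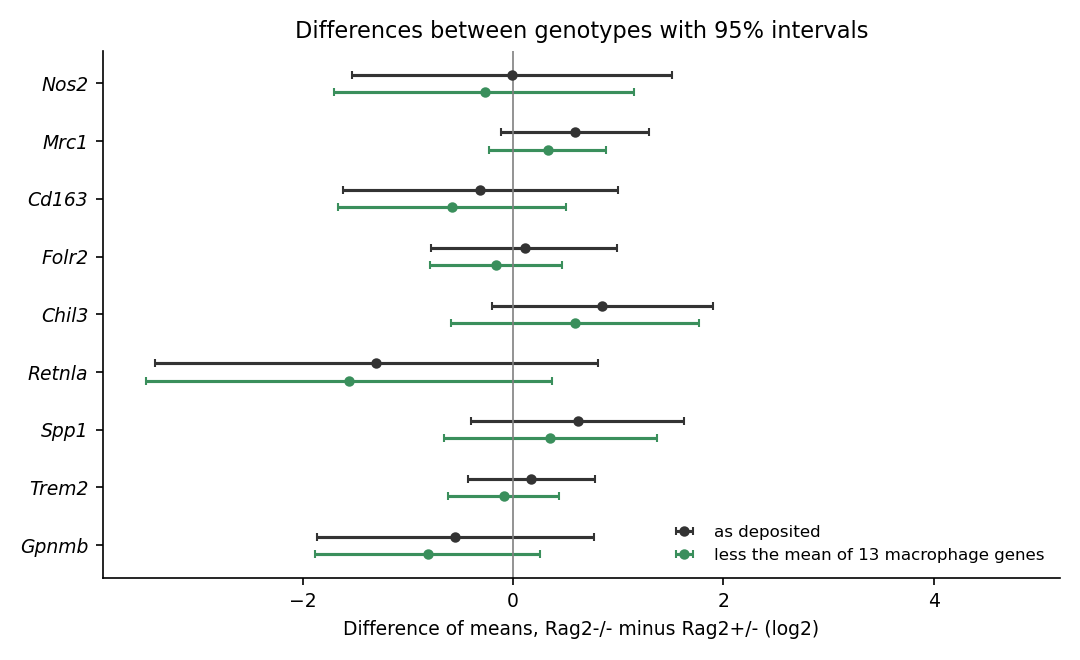
Difference of the group means for each gene, Rag2-/- minus Rag2+/- on the log2 scale, with 95% intervals from limma over 11 and 8 tumors, in black for the deposited values and in green after the mean of 13 macrophage genes was taken off. All 18 intervals include 0, the narrowest for Trem2 and the widest for Retnla.

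The pathways around these genes were read from 10 lists, with 87 of 106 genes tested and 0 called (lowest adjusted p 0.301). Of the 87, 5 had an unadjusted limma p under 0.05 and a higher mean in Rag2-/- tumors, and 3 a lower one, beside 6.74% and 9.56% of all genes tested. The median difference over the 87 genes was 0.07. The 5 were Siglec1, a sialic acid receptor of macrophages (1.12, adjusted p = 0.301), Il1b (0.76), Lrp1 (0.74), the folate carrier Slc19a1 (0.57) and the lysosomal gene factor Tfe3 (0.36). The 3 were Il12b (-0.81), spermine synthase Sms (-0.94) and Odc1, ornithine decarboxylase (-0.74). Of the 10 tested genes of the arginine list that holds Sms and Odc1, 5 had a higher and 5 a lower mean in Rag2-/- tumors. None of the 8 genes at the unadjusted level passed the adjusted test.

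By list, counts at the unadjusted level were 0 of 8 tested genes of the interleukin 4 and 13 axis, 0 of 7 other alternative activation genes, 2 of 14 classical activation genes, 2 of 10 arginine pathway genes, 1 of 12 resident scavenger genes, 1 of 7 hemoglobin and iron genes, 1 of 3 folate genes, 0 of 15 Trem2 and lipid genes, 0 of 7 osteopontin receptor genes and 1 of 4 MiT/TFE factors. All 7 tested genes of other alternative activation had a lower mean in Rag2-/- tumors (median -0.38, beside 0.06 over all genes tested). Ccl22 was the lowest in p (-0.71, limma adjusted p = 0.318). The share of all genes with a lower mean is not given here. Over all 10 genes, the list mean ran from 0.39 to 3.61 in Rag2-/- and from 0.42 to 3.67 in Rag2+/- tumors. This list mean was highest in Rag2+/- S59 (3.67), Rag2-/- S46 (3.61) and Rag2+/- S60 (3.45). Stat6, which carries the interleukin 4 signal, differed by 0.22 and Il13ra1 by 0.41 (adjusted p = 0.399 and 0.400). The cytokines Il4 and Il13 were at most -0.82 and -1.89 in any tumor. Tyrobp differed by 0.35 and Apoe by 0.32, and the osteopontin receptor subunit Itgav by 0.40 (adjusted p = 0.536).

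Markers of other cells were read in the same way. Of all genes tested, 6.74% had an unadjusted limma p under 0.05 and a higher mean in Rag2-/- tumors, and 9.56% a lower one. The 11 skeletal muscle genes had a lower mean in Rag2-/- tumors for 11 of 11 and an unadjusted limma p under 0.05 for 8, with a median difference of -2.15. The muscle mean ran from 4.43 to 11.83 in Rag2-/- and from 6.68 to 13.23 in Rag2+/- tumors. With that mean as a covariate, the difference was -0.10 for Retnla, 0.20 for Gpnmb, 0.27 for Cd163, 0.66 for Nos2 and -0.18 for Spp1, the last 4 with the sign turned, and 0.25 for Mrc1. Of the natural killer genes, Ncr1 (1.33) and Klrb1c (1.02) were higher in Rag2-/- tumors at the unadjusted level (adjusted p = 0.297 and 0.301), 2 of 3 tested. Of T cell genes only Cd4 was tested (-1.0, adjusted p = 0.301), and the T cell mean was at most -1.65 in Rag2-/- and at least 0.15 in Rag2+/- tumors. At the unadjusted level the counts were 1 of 13 macrophage genes (Fcgr1, 0.71), 1 of 9 mesenchymal genes (Twist1, 0.83), and 0 of 8 neutrophil, 0 of 3 dendritic, 0 of 3 adipocyte, 0 of 4 lymphatic, 0 of 3 osteoclast and 0 of 1 osteoblast genes. Eosinophil, melanocyte and hepatocyte genes were below the tested level, their list means at most -1.26, -1.59 and -1.56 in any tumor, and 3 of 4 hepatocyte and 4 of 4 melanocyte genes stayed below 0 in every tumor. Melanocytes and osteoclasts are known sources of Gpnmb. For osteoclasts, the list mean ran from -0.54 to 2.20 and was highest in S46, and its part in Gpnmb was not tested.

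**Figure D3:**
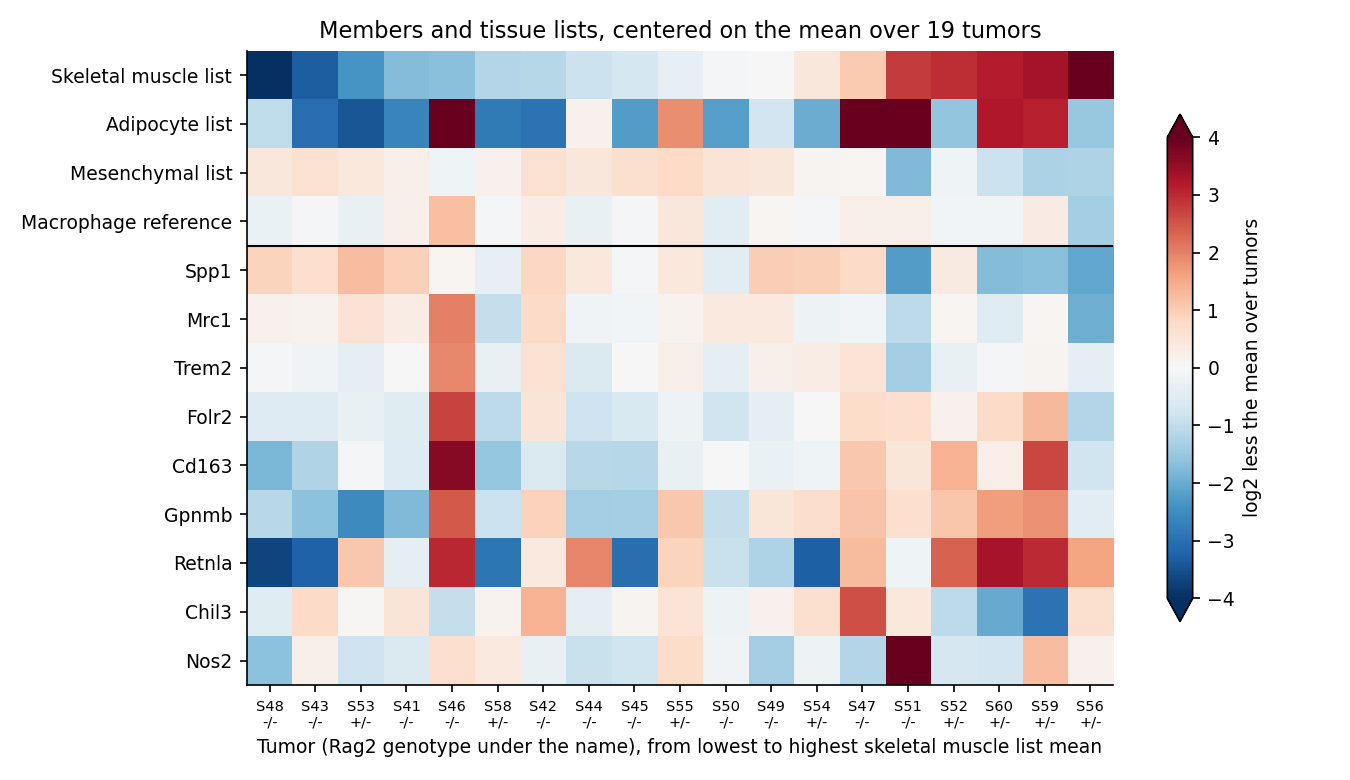
Heat map of the 9 genes and of 4 list means over 19 tumors, each row as log2 value less its mean over tumors (color scale from -4 to 4, larger values at the end color), with tumors ordered from the lowest to the highest skeletal muscle mean. Spp1 is low in S51, S60, S59 and S56 at the muscle-rich end, where S52 is also placed with Spp1 at 8.41, Cd163, Folr2 and Gpnmb are high together in S46 and S59, and Nos2 stands out in S51 alone.

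Which of these genes vary together was asked across the 19 tumors, over 36 pairs and the 9 relations with the macrophage mean. Of the 45 relations, 14 had an adjusted permutation p under 0.05, 13 positive and 1 negative, and 5 of the 14 were close to that threshold, between 0.0474 and 0.0491. The firmest group was Cd163, Folr2 and Gpnmb. Cd163 and Folr2 had r = 0.87 (permutation p = 2e-05, adjusted p = 0.0009, rho = 0.79), with r = 0.90 within Rag2-/- and 0.87 within Rag2+/- tumors, and r = 0.68 without S46 and S59. Folr2 and Gpnmb had r = 0.78 (permutation p = 5e-05, adjusted p = 0.00112, rho = 0.76) and r = 0.71 without S46 and S59. For Cd163 and Gpnmb, r was 0.72 (permutation p = 0.00015, adjusted p = 0.00169, rho = 0.69), and 0.59 without the same 2 tumors. Retnla joined this group through Cd163, with r = 0.68 (permutation p = 0.00074, adjusted p = 0.00666, rho = 0.66), 0.73 and 0.63 within the genotypes and 0.61 without S46 and S59. These 4 relations also had an adjusted p under 0.05 when values were taken relative to the macrophage mean, at r = 0.83, 0.70, 0.63 and 0.69, although taking a shared mean off both genes can itself add correlation. In the 15 tumors of the study's source tables, Cd163 and Folr2 had r = 0.79, Folr2 and Gpnmb 0.79 and Cd163 and Retnla 0.71 (adjusted permutation p = 0.0139, 0.0139 and 0.0234), and Cd163 and Gpnmb had 0.66 (adjusted permutation p = 0.0479).

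Folr2 also had r = 0.54 with Retnla (permutation p = 0.0137, adjusted p = 0.0474, rho = 0.50) and 0.61 with Trem2 (permutation p = 0.0114, adjusted p = 0.0474, rho = 0.52). Without S46 and S59 these were 0.38 and 0.19. In the 15 tumors, which include S59 and not S46, they were 0.63 (adjusted p = 0.0695) and 0.58 (adjusted p = 0.101), and relative to the macrophage mean 0.59 (adjusted p = 0.0519) and 0.19.

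Adipocyte genes moved with the same genes. The mean of 5 adipocyte genes had r = 0.79 with Folr2 (permutation p = 0.00013, adjusted p = 0.00234, rho = 0.56), 0.73 with Gpnmb (permutation p = 0.00025, adjusted p = 0.0030, rho = 0.70) and 0.72 with Cd163 (permutation p = 0.00087, adjusted p = 0.00626, rho = 0.57), among 36 relations of the 9 genes with 4 lists, a family chosen after the data were seen. Without S46 and S47, the 2 tumors farthest from the median, these were 0.62, 0.64 and 0.50. Within the genotypes they were 0.82 and 0.73 for Folr2, 0.77 and 0.81 for Gpnmb and 0.83 and 0.53 for Cd163. The adipocyte mean was 7.98 in S46 and 5.27 in S47, against -3.32 in S53. The part of fat tissue in these values was not tested.

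A looser pairing joined Mrc1 and Trem2, with r = 0.71 (permutation p = 0.00356, adjusted p = 0.0202), but rho was 0.43 and r was 0.91 within Rag2-/- and 0.33 within Rag2+/- tumors, and 0.53 without S46 and S56. In the 15 tumors of the source tables it was 0.23 (adjusted permutation p = 0.633), without S46 and S51 it was 0.35 (adjusted permutation p = 0.354), and relative to the macrophage mean 0.44 (adjusted permutation p = 0.149), so it did not pass the test in any of these settings. With the macrophage mean, Folr2 had r = 0.77 (permutation p = 0.00015, adjusted p = 0.00169) and Mrc1 r = 0.71 (permutation p = 0.00359, adjusted p = 0.0202). Without S56 and S46 these became 0.56 and -0.05, so the relation for Mrc1 rests on those 2 tumors. In the 15 tumors of the source tables they were 0.58 (adjusted permutation p = 0.101) and 0.08, and without S46 and S51 0.59 (adjusted permutation p = 0.0661) and 0.66 (adjusted permutation p = 0.0969). Trem2 had r = 0.62 with the macrophage mean (permutation p = 0.0125, adjusted p = 0.0474) and rho = 0.69, Cd163 r = 0.58 (permutation p = 0.0132, adjusted p = 0.0474) and rho = 0.34, and Gpnmb r = 0.53 (permutation p = 0.0153, adjusted p = 0.0491) and rho = 0.52. Without S56 and S46 these 3 were 0.34, 0.36 and 0.56. In the 15 tumors, which hold neither S56 nor S46, they were 0.77 for Trem2 (adjusted permutation p = 0.0139), 0.36 for Cd163 and 0.66 for Gpnmb (adjusted permutation p = 0.0541). Chil3, Retnla, Nos2 and Spp1 had r of -0.09, 0.18, 0.23 and 0.23 with it.

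Spp1 split the tumors in 2, so an r over all of them also holds the step between the sets. The 4 tumors with Spp1 at 6.39 or less, S51, S56, S59 and S60, had mesenchymal means (9 genes such as Col1a1 and Pdgfra) of 5.51 to 6.40 and muscle means of 11.83 to 13.23. The other 15 had mesenchymal means of 7.09 to 8.06 and muscle means of 4.43 to 11.97. Over all 19 tumors, Spp1 had r = 0.86 with the mesenchymal mean (permutation p = 0.00012, adjusted p = 0.00234, rho = 0.48), 0.80 within Rag2-/- and 0.89 within Rag2+/- tumors and 0.75 without S51 and S59. With the muscle mean it had r = -0.73 (permutation p = 0.00039, adjusted p = 0.00351, rho = -0.58), -0.64 and -0.78 within the genotypes and -0.68 without S56 and S48. The part of either tissue in the Spp1 values was not tested. Among those 15, Spp1 had r = 0.04 with the mesenchymal mean, -0.21 with the muscle mean, 0.13 with Mrc1, -0.47 with Nos2 and 0.33 with Chil3, 5 relations given as a description. These 15 were set off by Spp1 itself, which narrows its range and by construction tends to lower r. Over all 19 tumors, Spp1 had r = 0.58 with Mrc1 (adjusted p = 0.0341) and -0.61 with Nos2 (adjusted p = 0.0202), and relative to the macrophage mean 0.56 and -0.67 (adjusted p = 0.0648 and 0.0173), values that include the step between the 4 and the 15 tumors. The relation with Nos2 was -0.90 within Rag2-/- and -0.33 within Rag2+/- tumors, and -0.45 (adjusted p = 0.275) in the 15 tumors of the source tables. It was -0.30 without S51 and S59, so its size depends on those 2 tumors. That with Mrc1 was 0.43 and 0.65 within the genotypes, 0.64 without S56 and S46 and 0.45 (adjusted p = 0.275) in the 15 tumors of the source tables. With values centered by genotype, Spp1 and Mrc1 had r = 0.54 (adjusted permutation p = 0.0745). With the trend on the muscle mean removed they had 0.34 (adjusted permutation p = 0.286), and without S46 and S51 0.67 (adjusted permutation p = 0.0356). Spp1 and Chil3 had r = 0.42 over all 19 tumors (permutation p = 0.0721, adjusted p = 0.162) and 0.73 (adjusted permutation p = 0.0234) in the 15 tumors of the source tables, where the pair passed the test. The macrophage mean of S51, S59 and S60 was 6.72, 6.81 and 6.38, inside the range of the 15, whereas S56 had 5.12.

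**Figure D4:**
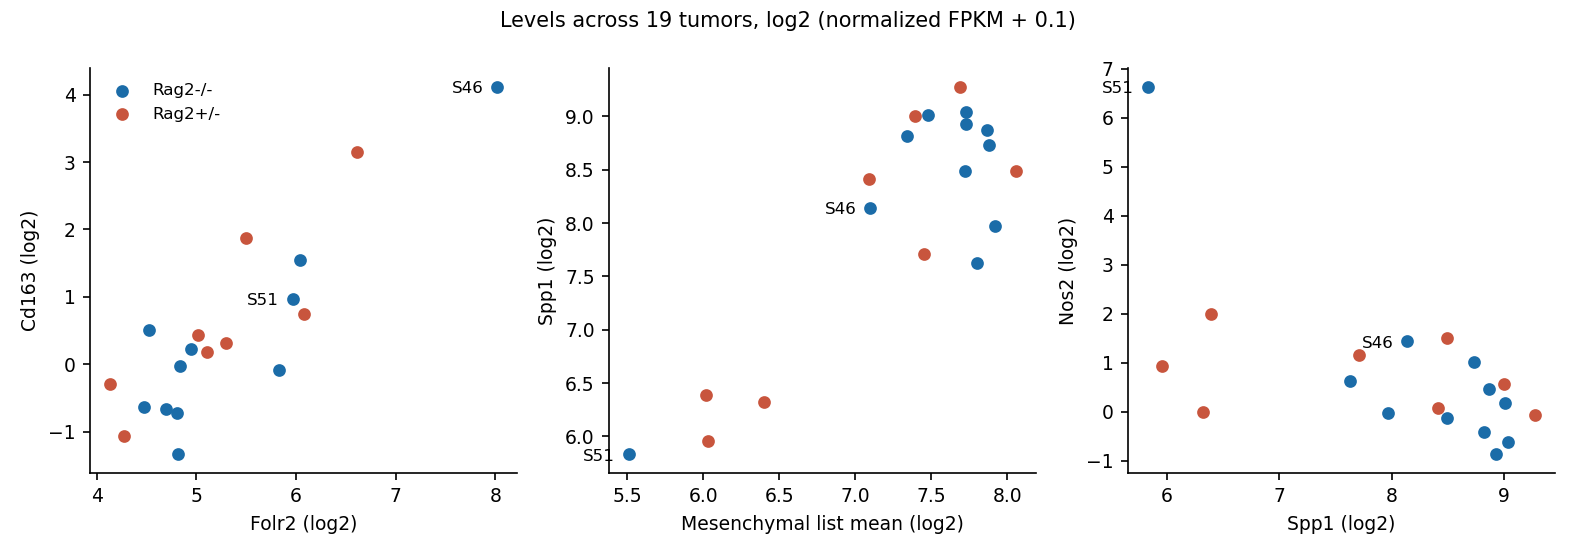
Scatter plots of 3 pairs of measures across 19 tumors on the log2 scale, blue for Rag2-/- and red for Rag2+/- tumors. Cd163 rises with Folr2 in the upper part of the range, with little course among the tumors low in Folr2 (left), Spp1 falls into 4 low and 15 high tumors that also differ in the mesenchymal mean (middle), and Nos2 is highest in S51, the tumor lowest in Spp1 (right).

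S51 and S46, both Rag2-/-, held many of the highest values of different lists. The share of all genes that are highest in either tumor is not given here, so the counts by list are a description. In S51, 13 of the 19 classical activation genes had their highest value of the 19 tumors, and the mean of this list was 4.11, against 1.17 to 2.84 in the others. Ifng, Cxcl9 and Irf1, named after their values were seen, were 2.43, 8.72 and 7.82 in S51, against at most -0.50, 6.43 and 5.14 elsewhere. T cell genes of S51 had the lowest mean of all tumors (-2.79), with Cd3e, Cd3d, Cd3g, Cd8a and Trac at the floor, and S48 (-2.74) and S50 (-2.71) were close. The natural killer mean of S51 (1.40) was second in its genotype to S43 (1.59), with S47 (1.39) and S41 (1.36) close behind. S51 is rich in muscle (11.83) and had the lowest mesenchymal mean (5.51). In S46, 13 of 15 Trem2 and lipid genes, 10 of 14 resident scavenger genes, 10 of 13 macrophage genes and 5 of 5 adipocyte genes had their highest value, while 1 of 19 classical activation genes did, Tlr4, and the classical activation mean of S46 (1.94) lay inside the range of the others. The profiles also had parts in common, since S46 and S51 had the 2 highest means of the hemoglobin and iron genes (7.85 and 7.18) and of the MiT/TFE factors (3.84 and 3.90), and the adipocyte mean was high in both (7.98 and 5.0). Within the MiT/TFE factors the genes differed, since S46 was the highest tumor for Mitf, Tfec and Tfe3 and S51 for Tfeb. Rag2+/- S59 was close to both in the mean of these factors (3.72).

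For each gene, the 3 genes most like it were taken by Pearson r over the 19 tumors among 12790 others, as a description. Mrc1 was closest to Stab1 (0.94), Rab3il1 (0.93) and Nxpe5 (0.91), and Folr2 to Cd200r1 (0.94), Cd68 (0.93) and Bscl2 (0.93). Cd163 was closest to Fcna (0.91), F13a1 (0.90) and Ccl6 (0.88), and Folr2 ranked 4 among 12798 genes by closeness to it. Gpnmb was close to F7 (0.95) and the lysosomal proton pump subunit Atp6v0d2 (0.91), which stayed at 0.97 and 0.92 without S46 and S51. Atp6v0d2 is also 1 of the 6 genes of the osteoclast list. Trem2 was closest to Man1c1 (0.90), St8sia4 (0.89) and Mmd (0.87), and these dropped to 0.62, 0.59 and 0.71 without S46 and S51. Retnla was closest to Adgrd1 (0.86), Tnxb (0.84) and Osbpl9 (0.83), and Spp1 to Sgce (0.93), Pcdh7 (0.92) and Hdgfl3 (0.92). Nos2 was closest to Wars (0.93), Gna13 (0.90) and Creb3 (0.90), which fell to 0.66, 0.60 and 0.51 without S46 and S51. Chil3 had weaker company, with Vhl (0.72), Trp53i13 (0.70) and Itga2 (0.70).

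**Figure D5:**
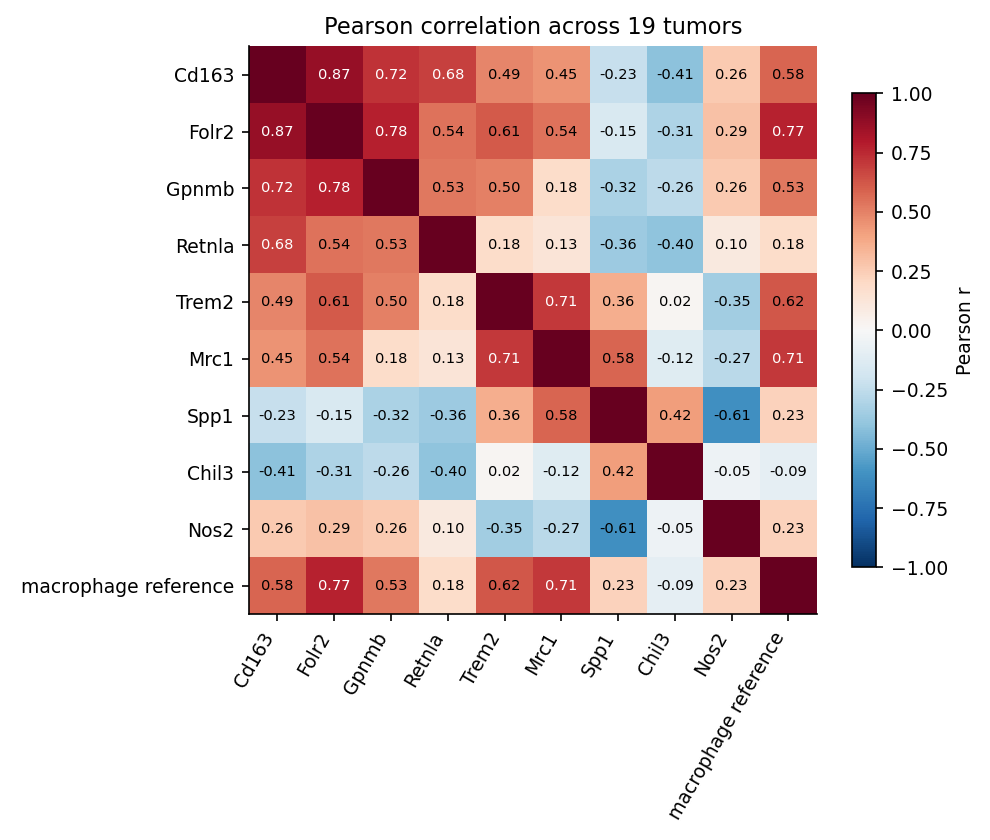
Pearson r across 19 tumors for every pair of the 9 genes and for each gene with the mean of 13 macrophage genes, on a color scale from -1 to 1. Cd163, Folr2, Gpnmb and Retnla form a block of r from 0.53 to 0.87, Chil3 stands outside it, and the lowest value is -0.61 for Nos2 and Spp1.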

How the data were processed

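The file holds 19 tumors, grouped by the genotype in their labels. The authors aligned reads (NEBNext libraries, 150-base pairs) with the Omicsoft aligner in Array Studio to mouse B38, allowing 2 mismatches, quantified Ensembl R86 genes, and deposited upper-quartile normalized FPKM as log2 values, with 0.1 added. The submitters' processing notes instead name Trimmomatic 0.36, STAR, HTSeq and mm10. Upper-quartile scaling assumes a shared upper quartile, which abundant muscle RNA can move. As these are no counts, count models were left aside, and 63.0% of all values were at the floor.

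Genes with a mean above 0 (12826) were tested with limma 3.58.1 (intensity trend, Benjamini-Hochberg, 0.05) in R 4.3.3, and single values with two-sided exact permutation over 75582 splits. Correlations used 100000 permutations. p-values rest on the spread between tumors, each from 1 mouse. Scripts were tested on simulated data. Depth was estimated from low values and transcript lengths of GENCODE vM21 on GRCm38, also the source of gene coordinates, and is approximate.

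The 9 genes and the 24 lists were chosen with earlier results of these data known. One further gene of the set, its relations and 1 gene among those most like a member are not reported here, and p-values of correlations were adjusted without them. Named were the 9 genes, up to 3 genes of each list with the lowest p, the 3 genes most like each, and Rag2, Cd3e and Igkc. Il4, Il13, Apoe, Ifng, Cxcl9, Irf1, Adgre1, Csf1r and Cd68 were named after their values were seen. Alternatives were the 15 tumors, each tumor left out, pseudocounts of 1 and 0.01, quantile or median scaling, other filters and variance models, Xist or muscle covariates, and 3 macrophage genes as reference. Added after seeing the data were the removal of the muscle trend, S46 and S51 left out together, the spread without S51, the 4 list families and the 15-tumor relations of Spp1. Python 3.11.15, numpy 2.4.6, pandas 2.3.3, scipy 1.17.1 and matplotlib 3.10.9 were used.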

Additional observations from a re-analysis of the deposited data

Results flagged for a closer look

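One value stood apart by Dixon's gap test in the Rag2+/- group, the only group of a size the test covers. The mean of the 13 macrophage genes was 5.12 in S56, and the next tumor lay at 6.20, a gap of 0.596 of the group's range, past the critical value for 8 samples. The same tumor had the highest muscle mean (13.23) and is 1 of the 4 outside the study's source tables. In all, 19 sets of 8 values were examined, and chance alone sets off about 1 in 20. Leaving S56 out lowered the Mrc1 difference from 0.59 to 0.36 and turned that of Folr2, of relative Trem2 and of Nos2 (from -0.01 to 0.01).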

How the results depend on the processing

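No alternative called any of the 9 genes (Nos2, Cd163 and Retnla were untested above a mean of 2), and the exact test found 1 only without S51 (Mrc1) and without S46 and S51 (Nos2, -0.74), a range of 0 to 1 over single tumors left out, and 0 to 2 relative to macrophage genes (2 without S51, 1 each without S53 and S54, 1 without S46 and S51), counts that stand beside 31.4% and 36.7% of all genes, and 14.0% to 20.0% relative. Genes called went from 4 to 15 with the 15 tumors, 26 with no filter, 0 above a mean of 2, 2 with the muscle covariate and 3 to 7 with single tumors left out (7 without S51 or S56). Related pairs went from 14 to 6 in the 15 tumors (5 of the 14 kept), 6 relative to macrophage genes (5 kept) and 6 without S46 and S51 (6 kept), and were 13 centered by genotype (12 kept) and 19 with the muscle trend removed (13 kept), where Mrc1 and Cd163 went from r = 0.45 to 0.86.

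Signs turned for Nos2 (pseudocount 1, 0.15, Xist covariate, 0.35, muscle covariate, 0.66), Cd163 (0.019 and 0.27 with these covariates), Spp1 (-0.18) and Gpnmb (0.20, both muscle), Folr2 (-0.40 in 15 tumors, -0.26 without S46 and S51) and relative Trem2 (0.17 and 0.0031 there). Over tumors left out, ranges were -0.60 to 0.16 for Nos2, -0.69 to 0.042 for Cd163, -0.16 to 0.30 for Folr2, -0.010 to 0.32 for Trem2, 0.37 to 0.87 for Spp1, -0.96 to -0.33 for Gpnmb and -0.16 to 0.066 for relative Trem2. The causes were not tested. No paired analysis was possible because the labels share no replicate number between genotypes. Estimated fragments limit Retnla, Cd163 and Nos2 in their lowest tumors.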
